A study of Rattus norvegicus with 12 samples.

Results

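Genes of fatty acid synthesis, elongation and desaturation were followed in the dorsal root ganglia of male Fischer 344 rats. These ganglia, here those at L6, the sixth lumbar level, hold the cell bodies of sensory neurons. The 10 genes were Acly, Me1, Acaca, Fasn, Elovl5, Elovl6, Scd, Scd2, Fads1 and Fads2, and the members were all array probes whose accession maps to one of these symbols in the RefSeq gene table. They came to 12 probes of 30367 on the array, with 2 probes each for Me1 and Elovl6 and 1 for every other gene, and to 10 of 15154 gene symbols. The genes were chosen by name, not by their values here, but with earlier results of these data known. The group young_AL was 6 months old with free access to normal food. The group old_AL was 25 to 28 months old and fed in the same way. The group old_CR was of that older age and had been given food on 3 days a week since 6 weeks of age, at about 40% fewer calories than old_AL. Each group held 4 rats with 1 one-colour array each, and all groups shared strain and sex. RNA came from the whole ganglion, in which fewer cells of a type and less RNA per cell cannot be told apart.

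De novo fatty acid synthesis starts from citrate, which Acly splits to give cytosolic acetyl-CoA. Acaca turns acetyl-CoA into malonyl-CoA, and Fasn joins malonyl units into palmitate with NADPH that Me1, the cytosolic malic enzyme, helps to supply. Elongases of the Elovl family lengthen the chains, Scd and Scd2 place the first double bond to make monounsaturated fatty acids, and Fads1 and Fads2 place the further double bonds of polyunsaturated ones. The transcription factor SREBP-1c, the product of Srebf1, induces most of these genes and is itself induced by the oxysterol receptor Nr1h3 (LXR alpha). In nerve and ganglion these enzymes supply, among others, the membrane lipids of myelinating Schwann cells and of long axons.

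The promoters of the 2 pairs of desaturase genes are shown because Scd and Scd2, and Fads1 and Fads2, are close neighbours on 1 chromosome. With age Scd and Fads2 were called (limma adjusted p = 0.00900 and 0.0433), while Scd2 and Fads1 were not (0.0719 and 0.0608). In some other processing settings Scd2 and Fads1 were called too, and in some Fads2 was not. The difference within a pair was not tested. In the RefSeq annotation 1 gene, Scd4, lies between Scd and Scd2, and 2 genes, none of them protein coding, lie between Fads1 and Fads2. Each sequence is the 250 bases before the gene's start in the GRCr8 build, read 5′ to 3′ on the gene's strand, with capitals for CCAAT (or ATTGG on the other strand), the box bound by the SREBP partner NF-Y. Scd lies on the minus strand at chr1:253231732-253231981 and Scd2 on the plus strand at chr1:253118127-253118376. Fads1 lies on the plus strand at chr1:216252442-216252691 and Fads2 on the minus strand at chr1:216172034-216172283.
Scd: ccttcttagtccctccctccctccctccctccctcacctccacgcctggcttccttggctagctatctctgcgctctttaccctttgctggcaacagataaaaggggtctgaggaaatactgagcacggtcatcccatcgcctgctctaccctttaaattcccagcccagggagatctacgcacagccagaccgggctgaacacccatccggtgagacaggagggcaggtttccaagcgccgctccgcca
Scd2: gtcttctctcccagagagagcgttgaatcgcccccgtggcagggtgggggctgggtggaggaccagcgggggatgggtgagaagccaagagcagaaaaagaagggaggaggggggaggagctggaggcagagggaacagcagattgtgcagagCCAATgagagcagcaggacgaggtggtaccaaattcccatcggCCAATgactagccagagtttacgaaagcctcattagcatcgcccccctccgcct
Fads1: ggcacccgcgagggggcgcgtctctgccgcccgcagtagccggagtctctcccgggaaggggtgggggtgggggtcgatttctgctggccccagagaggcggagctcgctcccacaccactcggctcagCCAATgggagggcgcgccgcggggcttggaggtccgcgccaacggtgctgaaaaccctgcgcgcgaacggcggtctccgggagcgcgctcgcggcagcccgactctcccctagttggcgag
Fads2: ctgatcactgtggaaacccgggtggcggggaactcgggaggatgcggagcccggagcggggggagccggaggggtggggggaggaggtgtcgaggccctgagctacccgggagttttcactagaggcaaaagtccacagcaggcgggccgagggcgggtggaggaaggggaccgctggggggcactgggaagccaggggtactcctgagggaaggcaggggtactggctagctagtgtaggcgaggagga
The window of Scd2 held CCAAT at 2 places and that of Fads1 at 1, whereas those of Scd and Fads2 held none. RefSeq promoters were matched for 7 of the 10 genes, and CCAAT lay in 4 of those 7 (Acly, Elovl5, Fads1 and Scd2) against 34% of all 33469 promoters of the same length, searched on both strands. The E-box CACGTG lay in 1 of the 7 (Elovl5) against 5.59% of all, and the sterol element TCACNCCAC in 0 of the 7 against 0.974% of all. These matches describe letters in a window, not sites in use, and their relation to the age calls was not tested.

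All 12 probes were well above background on every one of 11 arrays, with a median spread of 1.38% to 3.75% between spots of a probe on an array. The remaining array, old_AL 1, stood apart: its 75th percentile was 7662 against 2634 to 3110 elsewhere, 4026 of its spots were marked uneven against 1 to 208, and it correlated with the rest at a median of 0.929, where each of them reached 0.971 to 0.994. Values below rest on 11 arrays without it, a choice made with results known, and the values with all 12 arrays are given beside them. Among these 11, old_AL 4 had the lowest median correlation (0.971), with 190 uneven spots, and young_AL 4 had the most uneven spots (208). In the alternative fit with array weights, old_AL 4 had the lowest weight (0.255). Differences of old_CR against young_AL are the same on 11 and 12 arrays, and there the 12-array fit changes the spread and the p. Intensities are given scaled to a common 75th percentile, and differences on the log2 scale with their SE from limma. All young_AL arrays lay in row 2 of 1 slide, and on another slide all old_AL arrays lay in row 1 and all old_CR arrays in row 2. In old_AL against young_AL, age therefore cannot be told apart from slide and row, nor diet from row in old_CR against old_AL. Old_CR and young_AL shared the row but not the slide. Within each group the replicate number of an array was also its column on the slide. Of 11 listed sensory neuron markers, 9 had a probe and all 9 were above background on all 11 arrays, among them Prph, Tubb3 and Isl1.

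With age under free feeding, 5 of the 10 genes were lower in old_AL than in young_AL and none was higher. Elovl6 and Scd differed most, at 1.36- to 1.42-fold lower, and Fads2, Me1 and Fasn by less. In probes, 7 of 12 passed limma's test (adjusted p under 0.05 over 23623 probes), against 2.52% of all probes tested. All 7 were lower, against 0.944% of all probes called lower and 1.57% called higher. The 3 old_AL arrays lay below all 4 young_AL arrays for 10 of the 12 probes, against 7.44% of all probes; with old_AL 1 kept it was 5 of 12, against 4.28%. The median difference of the 12 probes was -0.20 and that of all probes 0.04, and -0.13 and -0.07 on 12 arrays. With old_AL 1 kept, limma called 0 of the 12 probes and 4 of 23727 in all (0.0169%), with 1563 at an unadjusted p under 0.05 against 5375 on 11 arrays. Fitted on the 2 groups alone, limma called 0 of the 12 and 22 in all. The all-probe calls depended on the scaling: 62.5% of them were higher in old_AL, but with normexp background correction 87.2%, with quantile normalization 22.1% and with median centring 13.2%. Median centring moved the median of all probes from 0.04 to -0.07, and under it 10 of the 12 member probes passed as lower.

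**Figure D1:**
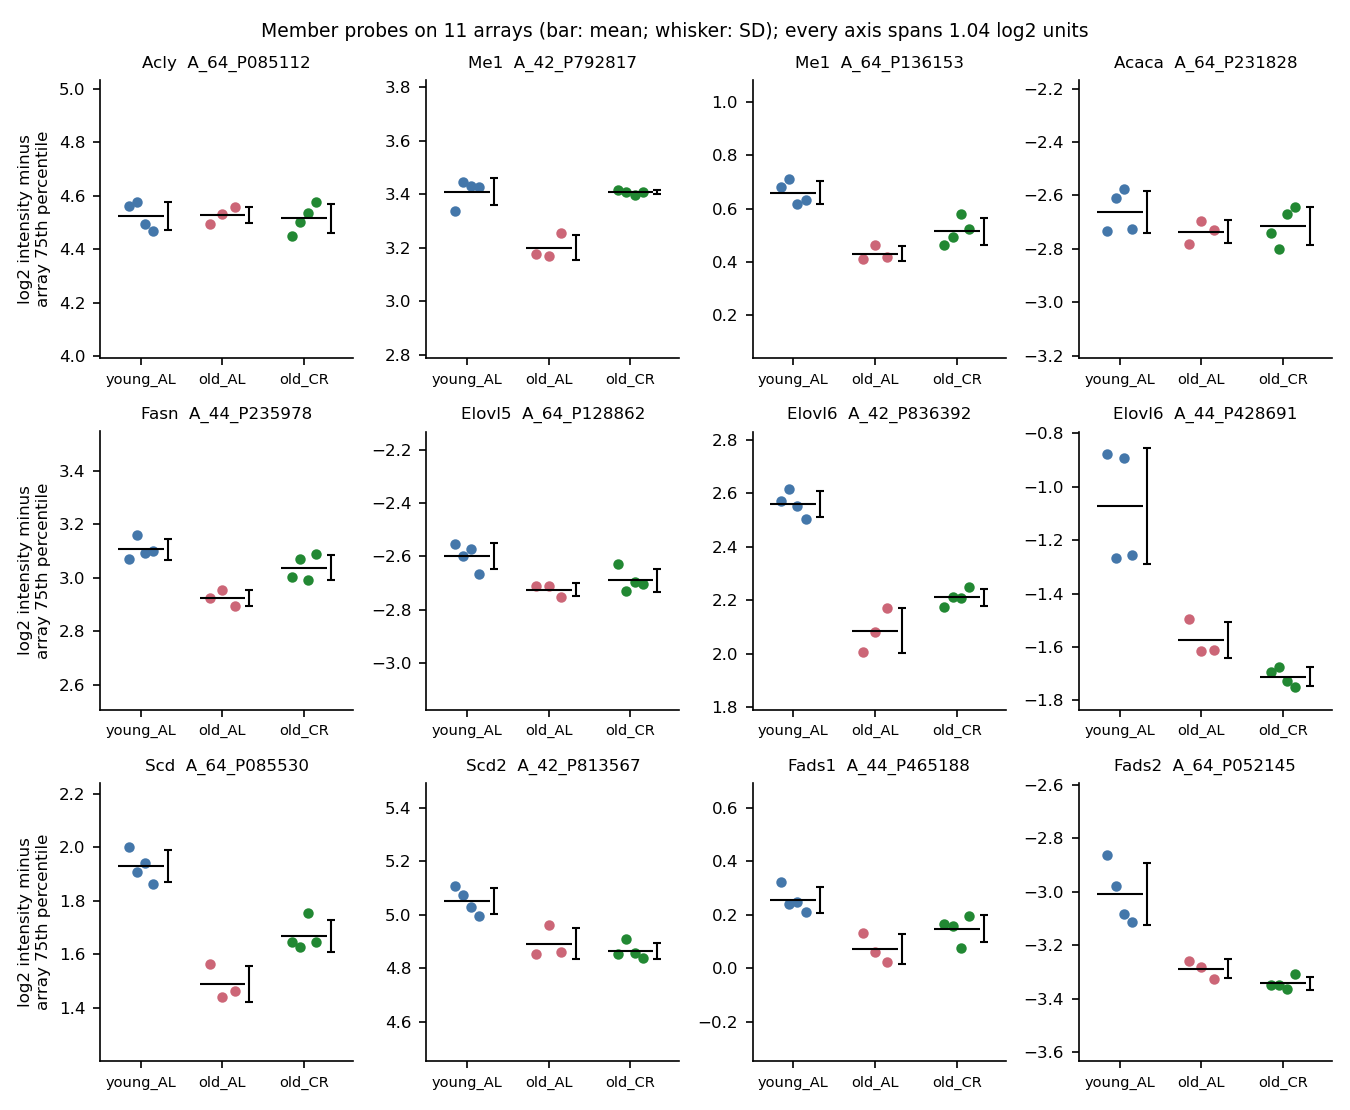
Log2 intensity minus the array's 75th percentile for each member probe on 11 arrays; a point is 1 array (1 rat), the line is the group mean and the whisker the SD, and every axis has the same span. The old_AL points lie below all young_AL points in 10 of 12 panels, all but Acly and Acaca.

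Acly, which supplies acetyl-CoA, was level across the groups. Its scaled intensity was 63530 to 68570 on the young_AL arrays, 64807 to 67606 on old_AL and 62690 to 68447 on old_CR, so that all 3 groups overlapped. The difference of old_AL against young_AL was 0.00 ± 0.04 (limma adjusted p = 0.971), with a 95% interval of -0.09 to 0.10, and it was 0.09 on 12 arrays.

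Me1, which supplies NADPH, was lower with age on both of its probes. The probe A_42_P792817, printed at 10 spots on each array, read 29038, 31276, 30985 and 30909 in young_AL, and 25948, 25853 and 27426 in old_AL. It read 30639, 30493, 30292 and 30530 in old_CR, within the range of the young rats and above all 3 old_AL arrays. With age the difference was -0.21 ± 0.04 (limma adjusted p = 0.0300), which is 1.16-fold lower. The diet difference, old_CR against old_AL, was 0.21 ± 0.04 (limma adjusted p = 0.0464), the only one of the 12 probes to pass in that comparison. Both calls turned with old_AL 1, where this probe read 87606: on 12 arrays the age difference was 0.22 (adjusted p = 0.693) and the diet difference -0.22 (adjusted p = 0.730). On the 2 groups alone the diet difference had an adjusted p of 0.121. The age call was kept without young_AL 1, old_AL 4, old_CR 1 or old_CR 3 and lost without any other array, and the diet call was kept without young_AL 1 or old_AL 2 only.

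The other Me1 probe, A_64_P136153, read 4602, 4696, 4408 and 4449 in young_AL, 3821, 3956 and 3837 in old_AL, and 3956, 4046, 4294 and 4129 in old_CR. Its age difference was -0.23 ± 0.04 (limma adjusted p = 0.0291), close to that of the first probe, while its diet difference was 0.08 ± 0.04 (adjusted p = 0.209; 0.29 on 12 arrays). Its age call was kept without young_AL 4, old_AL 3, old_CR 1, old_CR 2 or old_CR 3 and lost without any other array. On old_AL 1 it read 2170, below the other arrays, where the first probe read above them. The 2 probes therefore had opposite signs with age on 12 arrays, 0.22 and -0.44, and the same sign on 11. The log2 ratio of the first probe to the second was 2.75 ± 0.07 (SD, n = 4) in young_AL, 2.77 ± 0.06 (n = 3) in old_AL and 2.89 ± 0.06 (n = 4) in old_CR. It was higher in old_CR than in young_AL by 0.14 in a two-sided exact permutation test (p = 0.0286, the smallest this design allows, and 0.0857 adjusted over the 6 ratio tests on 11 arrays or 0.171 over the 6 on 12). Between old_AL and young_AL the ratio differed by 0.02 (exact p = 0.743), and on 12 arrays by 0.66 (exact p = 0.371).

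**Figure D2:**
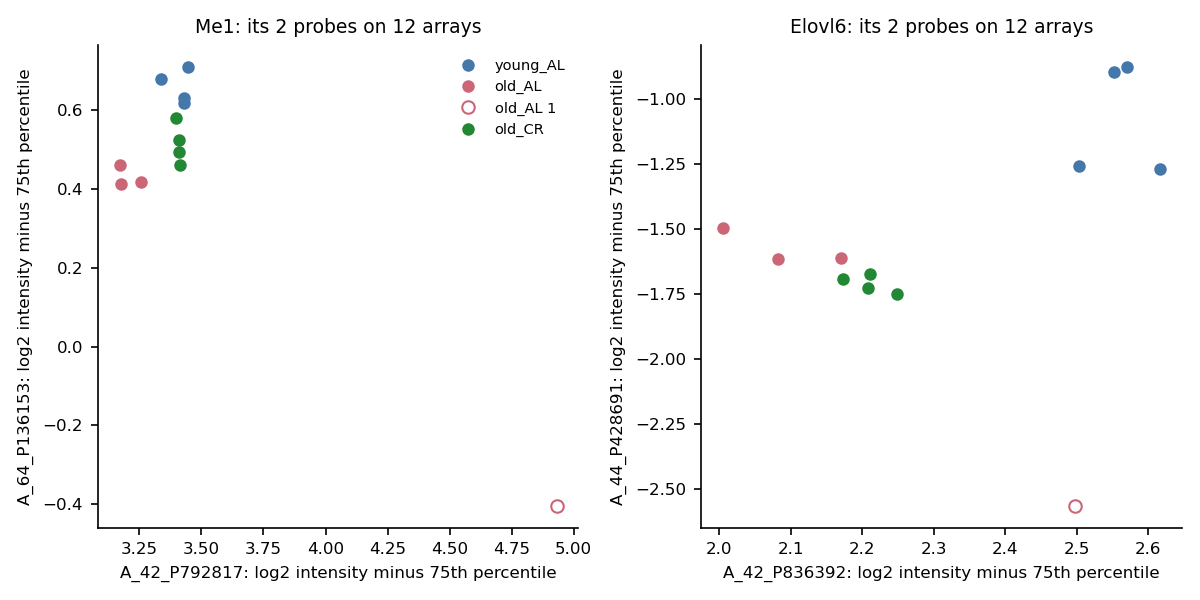
The 2 probes of Me1 (left) and of Elovl6 (right) against each other, as log2 intensity minus the array's 75th percentile, 1 point per array, with the open circle for old_AL 1. For Me1 that array is far right and far low, at 4.93 and -0.40, apart from the other 11.

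Acaca, the carboxylase that makes malonyl-CoA, passed in no comparison. It read 432 to 481 in young_AL, 418 to 443 in old_AL and 412 to 460 in old_CR, with overlap between all groups and an age difference of -0.07 ± 0.05 (limma adjusted p = 0.444; -0.23 on 12 arrays). Fasn, the synthase itself, read 24155, 25698, 24520 and 24616 in young_AL, and 21793, 22244 and 21338 in old_AL. In old_CR it read 23044, 24112, 22837 and 24432, between the old_AL and young_AL means and above all 3 old_AL arrays. The age difference was -0.18 ± 0.04 (limma adjusted p = 0.0447), and the diet difference 0.11 ± 0.04 (adjusted p = 0.117), which turned to -0.15 on 12 arrays. Fasn lost its age call without any 1 of the 11 arrays, with adjusted p of 0.0550 to 0.107, and on 12 arrays the difference was 0.08, since old_AL 1 read 45347.

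Elovl6, the elongase that takes palmitate to stearate, had the largest age differences of the 10 genes. Its probe A_42_P836392 read 17049, 17611, 16833 and 16279 in young_AL, and 11534, 12167 and 12934 in old_AL. In old_CR it read 12959, 13297, 13268 and 13652, just above the old_AL arrays and well below the young ones. It differed by -0.47 ± 0.05 with age (limma adjusted p = 0.00489), or 1.39-fold lower, and by -0.35 ± 0.04 for old_CR against young_AL (adjusted p = 0.00952). Both calls held without each of the 11 arrays in turn, with adjusted p up to 0.0248 and 0.0415. On old_AL 1 the probe read 16213, just below the lowest young array, and on 12 arrays the age difference was -0.37 (adjusted p = 0.530). On the 2 groups alone its age difference had an adjusted p of 0.0665.

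The second Elovl6 probe, A_44_P428691, was lower with age as well but less even among young rats, at 1564, 1192, 1546 and 1204. It read 1019, 938 and 939 in old_AL and 889, 901, 867 and 853 in old_CR, so that here the restricted rats were the lowest. Old_AL differed from young_AL by -0.50 ± 0.10 (limma adjusted p = 0.0407), kept in 1 of the 11 leave-one-out fits (without young_AL 4), and -0.75 on 12 arrays (adjusted p = 0.530). For old_CR against young_AL it was -0.64 ± 0.09 (adjusted p = 0.0166), lost without young_AL 3, old_CR 1 or old_CR 4. For old_CR against old_AL the first probe differed by 0.12 and the second by -0.14, neither past the threshold (adjusted p = 0.139 and 0.403), and by 0.02 and 0.11 on 12 arrays. Their log2 ratio was higher in old_CR than in old_AL by 0.26 (exact permutation p = 0.0286, the smallest this design allows, and 0.0857 adjusted over the 6 ratio tests), and on 12 arrays it differed by -0.09 (exact p = 1.0). Elovl5, an elongase of polyunsaturated chains, read 453 to 489 in young_AL, 426 to 439 in old_AL and 433 to 464 in old_CR. Its age difference of -0.13 ± 0.04 did not pass (adjusted p = 0.108; 0.06 on 12 arrays), but was called as lower with quantile normalization (adjusted p = 0.0230) and median centring (adjusted p = 0.0136).

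Scd, the stearoyl-CoA desaturase, read 11507, 10774, 11037 and 10440 in young_AL, and 8491, 7781 and 7905 in old_AL. In old_CR it read 8980, 8866, 9692 and 8987, above every one of the 3 old_AL arrays and below every young one. With age Scd differed by -0.44 ± 0.05 (limma adjusted p = 0.00900), or 1.36-fold lower, and it was called without each of the 11 arrays in turn, with adjusted p up to 0.0384. On 12 arrays it was -0.36 (adjusted p = 0.497), and on the 2 groups alone its adjusted p was 0.0788. The diet difference was 0.18 ± 0.05 (adjusted p = 0.0849; 0.10 on 12 arrays). For old_CR against young_AL it was -0.26 ± 0.05 (adjusted p = 0.0277), kept in 5 of 11 leave-one-out fits, those without young_AL 4, old_CR 3 or any 1 old_AL array.

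Scd2, the neighbouring desaturase gene, passed as lower than in the young in old_CR but not in old_AL. It read 99020, 96814, 93660 and 91684 in young_AL, 83119, 89462 and 83465 in old_AL, and 82924, 86216, 83320 and 82149 in old_CR. All 7 old arrays lay below all 4 young arrays. The age difference was -0.16 ± 0.04 (limma adjusted p = 0.0719), and that of old_CR against young_AL was -0.19 ± 0.04 (adjusted p = 0.0406), kept in 4 of 11 leave-one-out fits, those without young_AL 4 or any 1 old_AL array. The diet difference was -0.03 ± 0.04 (adjusted p = 0.686), with a 95% interval of -0.12 to 0.07. On 12 arrays the age difference was -0.03 and the diet difference -0.16. The age difference was called with median centring (adjusted p = 0.0138), normexp (adjusted p = 0.0261) and an intensity trend (adjusted p = 0.0379).

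Fads2, the delta-6 desaturase, read 395, 365, 339 and 332 in young_AL, 300.4, 296 and 286 in old_AL, and 282, 282, 279 and 290.1 in old_CR. All old arrays lay below all young ones, and the 2 diets overlapped. The age difference was -0.28 ± 0.06 (limma adjusted p = 0.0433), kept in 2 of 11 leave-one-out fits (without young_AL 1 or young_AL 4), and that of old_CR against young_AL was -0.33 ± 0.05 (adjusted p = 0.0197), kept in 6 and lost without young_AL 2, young_AL 3, old_CR 1, old_CR 3 or old_CR 4. After normexp background correction the age difference was -0.12 (adjusted p = 0.186). On old_AL 1 the probe was not well above background at either spot (26.4), so the 12-array age difference of -1.15 (adjusted p = 0.579) rests on a reading that is only a bound. Its neighbour Fads1, the delta-5 desaturase, read 3320 to 3594 in young_AL, 2918 to 3146 in old_AL and 3029 to 3290 in old_CR. The Fads1 age difference of -0.18 ± 0.04 was not called (adjusted p = 0.0608; 0.07 on 12 arrays, where old_AL 1 read 6009). It was called with quantile normalization (adjusted p = 0.0448), median centring (adjusted p = 0.0136), normexp (adjusted p = 0.0261) and an intensity trend (adjusted p = 0.0366).

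**Figure D3:**
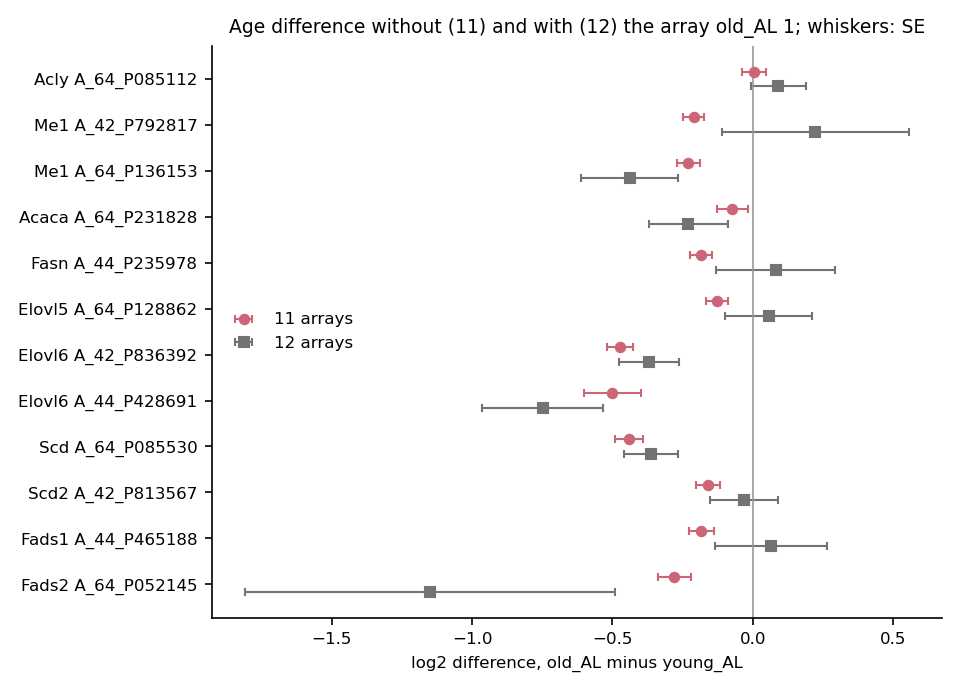
Log2 difference of old_AL minus young_AL for each member probe on 11 arrays (circles) and on 12 arrays with old_AL 1 (squares), with the SE as whiskers. On 11 arrays 11 of 12 differences are below 0, and on 12 arrays 7 of 12 are, with wider whiskers.

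Caloric restriction in the old rats was accompanied by a higher level of 1 of the 12 probes, the first of Me1, against 0.212% of all probes called higher, 0.698% called lower and 0.91% in all. For 5 of 12 probes (both of Me1, the first of Elovl6, Fasn and Scd) the old_CR arrays lay above all 3 old_AL arrays, against 7.78% of all probes, and for 1, the second of Elovl6, below them, against 15.3%. With old_AL 1 kept these were 1 (against 3.35%) and 0 (against 3.67%) of 12. The median difference was 0.06, beside -0.06 for all probes, and both signs turned on 12 arrays, to -0.04 and 0.05. On 12 arrays limma called 0 of the 12 and 1 in all (0.00421%), with 1379 at an unadjusted p under 0.05. The member count depended on scaling, with 5 probes higher after median centring (both of Me1, the first of Elovl6, Fasn and Scd) and 3 after normexp background correction (the first of Me1, Fasn and Scd). Of all diet calls 23.3% were higher in old_CR, but 70.8% with quantile normalization, 86.1% with median centring and 9.8% with normexp, and the median of all probes moved from -0.06 to 0.05 and 0.04 with the first 2. By group means, 8 of the 12 probes had the order young_AL, old_CR, old_AL from high to low, 3 (Scd2, Fads2 and the second of Elovl6) had old_CR lowest below old_AL, and Acly was highest in old_AL. On 12 arrays the diet difference turned sign for the first Me1 probe, Fasn, Fads1, Elovl5, Fads2 and the second Elovl6 probe. The orders share the old_AL arrays with the age comparison and were not tested.

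Restricted old rats differed from the young in both age and diet, and in this comparison 4 genes were lower: Elovl6 on both probes, Scd, Fads2 and Scd2. That was 5 of 12 probes, against 1.62% of all probes called lower, 0.724% called higher and 2.34% in all, and 7 of 12 lay below all young arrays, against 10.3% of all. The median difference was -0.13, beside -0.02 for all probes. None of these differences uses old_AL, and the fit to these 2 groups alone called 5 of the 12 too. In the fit to 12 arrays, in which old_AL 1 enters the shared estimate of spread, limma called 0 of the 12 and 4 in all (0.0169%), with 641 at an unadjusted p under 0.05 against 4283. The first Me1 probe differed from the young by -0.00 ± 0.03 (adjusted p = 0.983), with an interval of -0.08 to 0.08, and the second by -0.14 ± 0.04 (adjusted p = 0.0741). Fasn differed by -0.07 (adjusted p = 0.357).

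**Figure D4:**
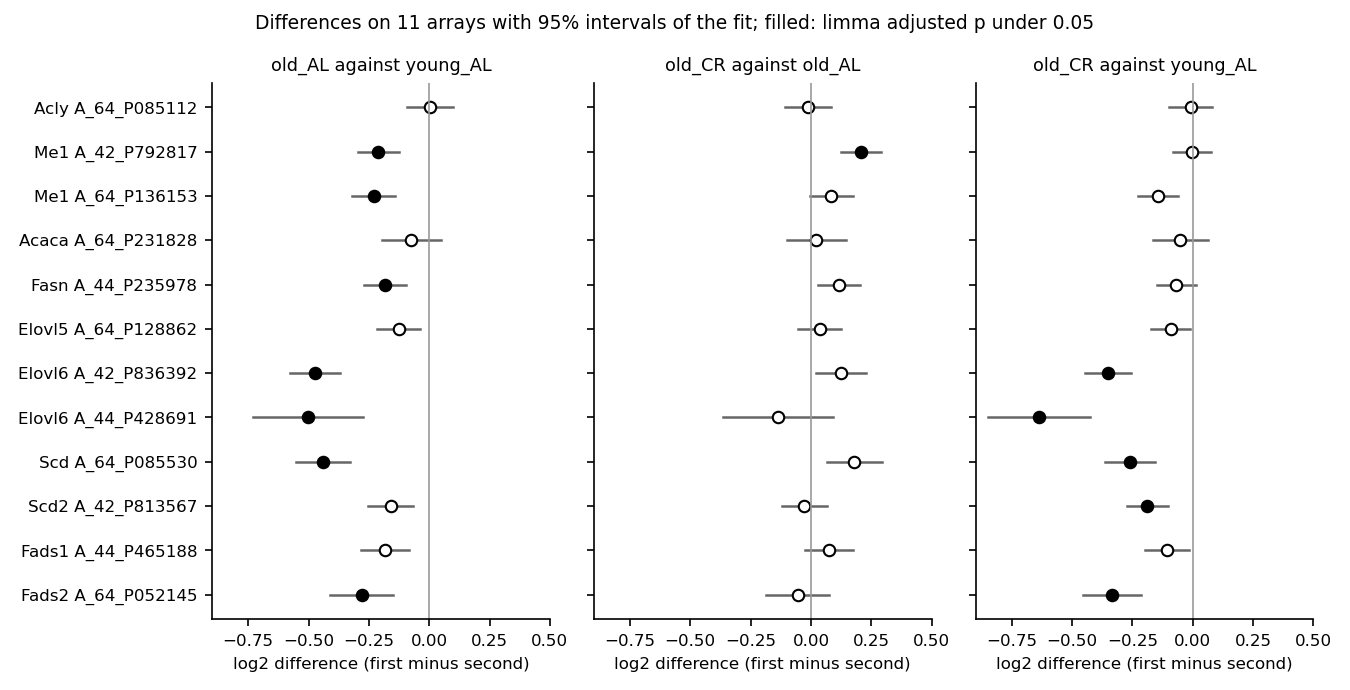
Log2 differences (first group minus second) of each member probe in the 3 comparisons on 11 arrays, with 95% intervals of the limma fit; filled points passed an adjusted p under 0.05. There are 7 filled points for age, all below 0, 1 for diet, above 0, and 5 for old_CR against young_AL, all below 0.

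Among other genes of the pathway, 3 passed in a comparison. Of 13 measured lipogenic regulators, Nr1h3, the oxysterol receptor named above, was the only one to pass: it was higher with age by 0.37 ± 0.05 (limma adjusted p = 0.0192) and lower with restriction, at -0.48 ± 0.05 (adjusted p = 0.0251). On 12 arrays these differences were 0.42 and -0.53, neither past the threshold (adjusted p = 0.336 and 0.285). Srebf1 was listed too, but no probe accession matched it through the RefSeq table, so it could not be followed here. Of 13 other elongation and desaturation genes, Hacd3, a dehydratase of the elongation cycle, was lower with age at -0.16 ± 0.03 (adjusted p = 0.0352; -0.44 on 12 arrays, adjusted p = 0.579). Elovl1, an elongase of very long saturated chains, was lower in old_CR than in young_AL at -0.39 ± 0.07 (adjusted p = 0.0297; 0.591 on 12 arrays). None passed in any comparison among 7 genes of other synthesis steps, 5 of NADPH supply, 10 of fatty acid activation and esterification and 12 of fatty acid oxidation, whose median age differences were -0.02, -0.02, 0.00 and -0.01.

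Among 11552 other genes, the 5 whose log2 values followed the members' mean scaled profile most closely over 11 arrays were Hacd3 (r = 0.96), Cop1, a ubiquitin ligase (r = 0.95), Stard4, a cholesterol transfer protein (r = 0.95), the receptor phosphatase Ptprz1 (r = 0.94) and Igflr1 (r = 0.93). These arrays share the 3 groups, so the values describe likeness only, and genes chosen in this way share the members' differences by construction. On 12 arrays r was 0.98 for Stard4 and 0.91 for Cop1, but -0.61 for Hacd3, 0.19 for Ptprz1 and 0.59 for Igflr1.

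Markers of other cell types also differed between the groups. Of 12 measured myelinating Schwann cell genes, 0 passed with age, with a median difference of -0.23, and their summed scaled intensity was 442678 to 499930 in young_AL, 371712 to 453086 in old_AL and 370243 to 430515 in old_CR. In old_CR against young_AL 3 of the 12 were lower: Pmp22 at -0.30 (limma adjusted p = 0.0499), Fa2h at -0.52 (adjusted p = 0.0362) and Ugt8 at -0.73 (adjusted p = 0.0311). Of 7 tested adipocyte genes, Cfd was higher with age by 1.99 (adjusted p = 0.00866) and in old_CR against young_AL by 1.09 (adjusted p = 0.0324), whereas Lpl differed by -0.10 and -0.43 and Pparg by 0.01 and -0.01 in these comparisons, none of them called. Over the 7 tested genes, Adipoq included, the median difference was 1.29 with age and 1.08 for old_CR against young_AL. On 12 arrays these medians were 0.94 and 1.08. The adipocyte sum was 2671 to 3253 in young_AL, 5238 to 8326 in old_AL and 4304 to 4716 in old_CR. Adipoq was not well above background in young_AL, above it on 1 of 3 old_AL arrays and on all 4 old_CR arrays. In old_CR it was at least 9.99-fold higher than in young_AL. It was measured well enough to be tested through old_CR alone, where it was high, so its p is not used. The bound, and the medians and sum that count Adipoq, describe the list and test nothing. Cidec was above background on none of the 11 arrays. Of 9 macrophage genes 4 passed as higher with age (Cd163 by 1.81, Mrc1 by 1.13, Lyve1 by 1.09 and Gpnmb by 1.48, limma adjusted p of 0.0148 to 0.0399). All 9 differed by 0.52 to 1.81 with age, with a median of 1.09 (0.60 on 12 arrays). With diet all 9 differed by -0.52 to -0.26, with a median of -0.44 (-0.20 on 12 arrays), and none passed. The macrophage sum was 8173 to 10863 in young_AL, 13598 to 20246 in old_AL and 11025 to 14592 in old_CR. Lyve1 and Gpnmb passed for old_CR against young_AL too.

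Of 7 satellite glia genes, Ednrb was lower with age at -0.30 (limma adjusted p = 0.0393), Slc1a3 was lower in old_CR than in old_AL at -0.36 (adjusted p = 0.0305), and Fabp7, Slc1a3 and Ednrb were lower in old_CR than in young_AL. Over the 7 genes the median difference was -0.04 with age and -0.15 with diet. For old_CR against young_AL it was -0.36, with differences from -0.60 to 0.20. The sum of the 7 satellite glia genes was 261199 to 285162 in young_AL, 275042 to 294638 in old_AL and 245947 to 269948 in old_CR. Of 9 sensory neuron genes, the neurofilament genes Nefl and Nefh were lower with age at -0.31 and -0.25 (adjusted p = 0.0148 and 0.0390) and in old_CR against young_AL, and Isl1 was higher in old_CR than in old_AL by 0.31. The neuron sum was 1008600 to 1068480 in young_AL, 1004950 to 1037930 in old_AL and 959189 to 1019900 in old_CR. Of 6 fibroblast genes, Col1a1 passed, lower in old_CR than in young_AL at -0.92, and of 4 erythroid genes none passed. All 4 erythroid genes differed by 0.36 to 1.38 with age, with a median of 0.62 (0.46 on 12 arrays). With diet all 4 differed by -0.92 to -0.38, with a median of -0.66 (-0.37 on 12 arrays). For old_CR against young_AL they differed by -0.11 to 0.54, with a median of -0.04. The fibroblast sum was 113274 to 142264, 92372 to 125758 and 77258 to 109573 in young_AL, old_AL and old_CR, and the erythroid sum 475246 to 674196, 594088 to 777345 and 508943 to 536288. On 12 arrays none of these markers passed. On old_AL 1 every one of the 7 sums lay outside the range of the other 3 old_AL arrays: 581552 for Schwann cell genes, 2869 for adipocyte, 152742 for macrophage, 252697 for satellite glia, 1214570 for neuron, 360696 for fibroblast and 584648 for erythroid genes. The part of these cell types in the members' differences was not tested.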

How the data were processed

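RNA of 12 samples, 1 per rat, was measured on Agilent one-colour rat arrays with the dye Cy3, per the labels. The deposited values are spot intensities that the authors obtained with Agilent Feature Extraction 10.7, per the submitters' processing notes, and their processed signal was background-subtracted, per the file headers. The deposited table of the whole series held the same intensity values, with a largest difference of 0, so it is linear and uncentred.

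Control spots and flagged outlier spots were left out, spots of a probe averaged on the log2 scale, and the 75th percentile of each array subtracted. Probes well above background on at least 4 arrays were tested with limma 3.58.1 (R 4.3.3; lmFit and eBayes, 3 groups in 1 fit, Benjamini-Hochberg adjustment over all probes, threshold 0.05), after tests on simulated data. For a listed gene with several probes, the brightest was used. Accessions were named through the RefSeq table: 17998 of 30367 probes had a symbol. No sequence of the probes was used here. Probe ratios were tested by exact permutation. The members and lists were chosen with earlier results of these data known. Named were every member probe, every listed gene that passed and the 5 genes of most similar profile. Some adipocyte and neuron genes that did not pass were named too, outside that rule. Alternatives were 11 processing settings and 11 fits leaving out 1 array each. Replicate numbers, taken from the source names, matched the column of each array on its slide. Deviations of same-numbered arrays correlated at -0.09 to 0.08, and the main fit used no pairing. The number of arrays limits the precision.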

Additional observations from a re-analysis of the deposited data

Results flagged for a closer look

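In each group of 4 arrays, the highest and the lowest value of every member probe were compared with the rest by Dixon's gap ratio, the gap to the nearest other array over the group's range, against its 95% critical value for 4 arrays. Of 36 groups, 11 exceeded it, where chance flags about 1 in 20, and 9 of the 11 were the array old_AL 1. That array was the highest of its group for Me1 A_42_P792817 (gap ratio 0.952), Fasn (0.945), Fads1 (0.896), Elovl5 (0.944) and Acly (0.841). It was the lowest for Fads2 (0.980), Me1 A_64_P136153 (0.942), Elovl6 A_44_P428691 (0.888) and Acaca (0.873). It was not beyond the critical value for Scd, Scd2 and Elovl6 A_42_P836392. The array also had 4026 spots marked uneven, and their part in each value was not tested.

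The other 2 were young_AL 1, the lowest of its group for Me1 A_42_P792817 (gap ratio 0.841, log2 value 3.34 against a nearest 3.43), and old_CR 3, the highest of its group for Scd (0.848, log2 value 1.75 against 1.65). Without young_AL 1 the Me1 probe kept its calls for age and diet, and without old_CR 3 Scd kept its calls for age and for old_CR against young_AL.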

How the results depend on the processing

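Of 822 member differences under an alternative, 649 kept direction and side of the threshold, 115 lost the call, 17 gained one and 41 changed sign, of which 3 were of called probes. Those 3 came on 12 arrays: Me1 A_42_P792817 at 0.22 with age and -0.22 with diet, and Fasn at 0.081 with age. The 649 include all 12 differences of each comparison under the deposited series table, which held the same values. They also include uncalled differences that stayed uncalled, so they do not measure how well the calls held. Uncalled differences that changed sign on 12 arrays were Fads1 at 0.065 and Elovl5 at 0.056 with age, and with diet Fasn at -0.15, Elovl6 A_44_P428691 at 0.11, Fads1 at -0.17, Fads2 at 0.81 and Elovl5 at -0.15. With quantile normalization and median centring, Acly was -0.069 and -0.098 with age, and with diet Acly was 0.061 and 0.089, Scd2 0.028 and 0.073 and Fads2 0.12 and 0.047. Acly was -0.026 with age and 0.028 with diet after normexp, -0.0022 with age under the replicate block, 0.0039 with diet and 0.010 for old_CR against young_AL with array weights, and 0.0024 there after normexp. Me1 A_42_P792817 was 0.0081 (quantile) and 0.0028 (normexp) for old_CR against young_AL. Leaving out 1 array gave -0.016 to 0.021 for Acly with age, -0.032 to 0.010 with diet and -0.029 to 0.014 for old_CR against young_AL, -0.027 to 0.0091 for Me1 A_42_P792817 there, and with diet -0.047 to 0.0060 for Scd2 and -0.0010 to 0.051 for Acaca. Member probes called with age numbered 7, but 0 on 12 arrays, 0 on the compared groups alone, 0 with the replicate block, and 5 without the filter on dim probes or with array weights, where Fasn and Fads2 lost the call. The number with age rose with quantile normalization (Fads1 and Elovl5 gained) and median centring (Scd2, Fads1 and Elovl5 gained). It also rose with normexp (Scd2 and Fads1 gained, Fads2 lost) and an intensity trend (Scd2 and Fads1 gained). With diet the member probes called numbered 1, but 0 on 12 arrays, 5 with median centring, 3 with normexp, 0 without the filter on dim probes, 0 on the groups alone and 0 with the replicate block. For old_CR against young_AL they numbered 5, but 0 on 12 arrays, 3 with quantile normalization, 3 without the filter and 0 with the replicate block. There Scd2 lost its call with median centring, and Me1 A_64_P136153 gained one with an intensity trend and with array weights. The block added terms for the replicate numbers, which are also the slide columns, and it left 23, 1 and 20 calls over all probes. Leaving out 1 array gave 2 to 5 member probes with age (2 without young_AL 2, young_AL 3, old_AL 2 or old_CR 4), 0 to 1 with diet and 1 to 5 for old_CR against young_AL (1 without young_AL 3, old_CR 1 or old_CR 4); the diet call was kept without young_AL 1 or old_AL 2 only. Over all probes, the 595 age calls became 1116 with quantile normalization, 3058 with median centring and 4358 with normexp, and the 215 diet calls 366, 2007 and 5430. Leaving out 1 array left 32 to 399 age calls, 1 to 993 diet calls and 50 to 943 for old_CR against young_AL.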
